A study of Mus musculus with 6 samples.

Results

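The Hoxa and Hoxb genes described here are Hoxa3, Hoxa5, Hoxa6, Hoxa7, Hoxa9, Hoxa10, Hoxb2, Hoxb3, Hoxb4 and Hoxb5, 10 genes taken by symbol from 15845 gene rows of an RNA-seq count table. All 10 had a row, and all 10 passed the filter on low counts, which kept 13149 genes. The RNA came from LSK cells of mouse bone marrow, which lack mature lineage markers and carry Sca1 and c-Kit, the fraction that holds blood stem cells and early progenitors. The 6 mice were C57BL/6 and carried Mx1Cre with Jak2VF/VF in both groups. The Cre recombinase is under the interferon-responsive Mx1 promoter, which is not specific to stem cells, and both alleles of the kinase gene Jak2 carry the change labelled VF. One group of 3 received vehicle, labelled PBS, and the other group of 3 received TP-3654, a Pim1 inhibitor per the series title, at 150 mg/kg/day over 6 weeks. The series calls the libraries of a group biological replicates. Mouse age is not given in the sources used here, and no group without the Jak2 allele was analysed here, so the values compare treatments within 1 genotype.

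Hox genes encode transcription factors that bind DNA through the homeodomain, a domain of 3 helices encoded by the homeobox. They lie in clusters, in which genes of like number (paralogues) descend from a common ancestor gene and gene order follows the order of use along the body axis. In blood formation, Hoxa and Hoxb genes are active in stem and early progenitor cells and fall in level as cells mature. HOX proteins bind DNA together with the TALE homeodomain proteins of the PBX and MEIS families. MLL (Kmt2a) and Polycomb complexes keep the clusters in an active or a silent state, and Hoxa9 with Meis1 is a known driver pair in myeloid leukaemia.

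The homeobox is described first because it is what the 10 genes share, and because near-identical stretches limit how reads can be assigned to them. Over its 60 codons (180 bases) in GENCODE M21 transcripts of GRCm38, identity was highest between Hoxa3 and Hoxb3 (93.9%), then Hoxa6 and Hoxa7 (88.9%) and Hoxa5 and Hoxb5 (83.9%). It was lowest between Hoxa10 and Hoxb3 (57.8%). In codons 41 to 60, which encode the end of the domain including the helix that reads DNA, 28 of the 60 bases were the same in all 10 genes.

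In this stretch Hoxa6 and Hoxb4 were identical over 52 bases in a row, and Hoxa7 was identical to each of them over 47. A read that lies wholly inside such a run cannot be assigned by its sequence. The share of a gene that is affected was small: 3.32% of the 31-base words of Hoxa6 occurred in another gene on the same strand, the named ones being Hoxa7 and Hoxb4. For Hoxb4 the share was 1.55%, for Hoxa9 1.02%, for Hoxa7 0.977%, and for Hoxa10 and Hoxb2 0. Hoxa3 had the highest share, 8.24%, with the overlapping gene Gm28308 and the paralogue Hoxd3 among the loci it matched.

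Reads from the opposite strand are a separate limit, since the strand setting of the authors' counting is not given in the sources used here. Of the exon bases of Hoxb3, 52.9% lay opposite exons of the antisense gene Hoxb3os, and of those of Hoxb2 27.3% did. Hoxa3 had 25.4% of its exon bases opposite other transcripts and Hoxa7 had 20.4% opposite Hoxaas3. Hoxa5, Hoxa6, Hoxa9, Hoxa10 and Hoxb4 had none.

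The Hoxa genes lie on the minus strand of chromosome 6 and the Hoxb genes on the plus strand of chromosome 11 in GRCm38. In the RefSeq table Hoxa9 spans 52223097 to 52227370 on chromosome 6, Hoxa7 52215623 to 52218573 and Hoxa6 52204858 to 52208672. Hoxb4 spans 96318267 to 96321638 on chromosome 11. RefSeq promoter windows (250 bases before to 50 after the start, GRCm38.p6) were matched for 7 of the 10 genes. The Hoxa6 window is the one shown, since Hoxa6 was the only one of the 10 genes whose groups did not overlap. Groups did not overlap in 25.9% of all tested genes either, and Hoxa6 did not pass the test (edgeR adjusted p = 0.328). Its stretch outside annotated exons, chr6:52208723-52208922 read on the minus strand, has 5 overlapping or separate matches to GGGCGG and 1 to CCAAT (as ATTGG) in capitals.
Hoxa6 upstream: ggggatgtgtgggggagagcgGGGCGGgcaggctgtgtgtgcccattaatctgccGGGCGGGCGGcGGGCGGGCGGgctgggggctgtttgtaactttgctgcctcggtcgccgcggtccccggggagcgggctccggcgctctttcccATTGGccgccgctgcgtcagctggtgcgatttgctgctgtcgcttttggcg

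Letters were searched on both strands as descriptions, not as binding sites. GGGCGG, the core of the SP/KLF element, was in the windows of Hoxa6, Hoxa9 and Hoxa10 and in 35.7% of the 32851 promoters of the table. CCAAT was in those of Hoxa5, Hoxa6 and Hoxa10 and in 37.4% of all. TTTATG, the CDX motif, matched 2 times in the Hoxa7 window and was in 11.9% of all promoters. AGGTCA, a nuclear receptor element, was in the windows of Hoxa5 and Hoxb4 and in 16.3% of all. TGACAG (MEIS) was in that of Hoxa3 (19.2% of all), TATAAA in 1 window of Hoxa10 (13.6% of all), and TGATTNAT (HOX with PBX) in none of the 7 genes' windows (3.22% of all). No motif was shared by most of the genes.

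Library totals ran from 20582057 to 25315596 counts. Levels are given in CPM, which sets the counts of every library on the same TMM-corrected total, and 3 counts, taken as the limit of detection, correspond to 0.116 to 0.153 CPM. The sort markers Kit and Ly6a (Sca1) were present in every library, with a summed level of 405 to 444 CPM in vehicle and 497 to 649 CPM in TP-3654 libraries. Of 14 B, T and NK cell markers, 6 had no row or at most 3 counts in every library, among them Pax5, Cd3e and Cd8a. The list summed to 256 to 312 CPM in vehicle and to 170 to 250 CPM in TP-3654 libraries, all lower, and its most abundant gene was Nkg7, with means of 246 and 165 CPM. The part of this difference in the results was not tested. The libraries were not alike in spread: TP-3654 replicate 3 held the lowest value of 32.3% and the highest value of 28.9% of all tested genes, against 7.07% to 22.7% for either extreme in the other libraries.

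In the count table, most of the counts of the 10 genes came from 3 of them. Hoxa7, Hoxa9 and Hoxb4 together gave 77.3%, 81.3% and 78.7% of the 10 genes' counts in vehicle replicates 1 to 3, and 75.8%, 77.3% and 75.3% in the TP-3654 replicates. Hoxa9 alone gave 39.1% to 43.4% over the 6 libraries. The 4 Hoxb genes gave 18.1% ± 2.91 (SD, n = 3) in vehicle and 17.9% ± 0.344 (SD, n = 3) in TP-3654 libraries. The summed level of the 10 genes was 153 ± 15.9 CPM in vehicle and 156 ± 22.1 CPM in TP-3654 libraries (SD, n = 3), with overlapping groups.

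Per kilobase of GENCODE exons, Hoxa7 and Hoxa9 led in vehicle libraries at 12.4 ± 1.51 and 11.5 ± 1.58 CPM per kilobase (SD, n = 3), and their libraries overlapped. Hoxb4 followed at 8.20 ± 0.864 and Hoxa5 at 4.76 ± 0.465, each separate from the gene above it in every vehicle library. Hoxa10 (3.01 ± 1.03) and Hoxa6 (2.099 ± 0.654) overlapped each other. Below them Hoxb5 (0.895), Hoxa3 (0.812) and Hoxb3 (0.701) formed a run of neighbours whose libraries overlapped, and Hoxb2 was lowest at 0.286. Hoxa10 lay below every library of Hoxa5 in vehicle but not in TP-3654 libraries, where those genes overlapped. With the longest transcript as the length, Hoxa9 stood at 19.8, Hoxa7 at 17.6 and Hoxa3 at 1.88, so that Hoxa9 came before Hoxa7. The GENCODE exons of Hoxa9, Hoxb2 and Hoxb5 (5580, 3488 and 2786 bases) are longer in sum than the genes' RefSeq spans. The annotation behind the counts is not given, so these levels rest on lengths that may not match the counted gene.

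Against 13071 tested genes with a length, whose median was 7.51 CPM per kilobase, Hoxa7 stood at the 63.7th percentile in vehicle, Hoxa9 at the 61.4th and Hoxb4 at the 52.5th. The other members stood below the median, from Hoxa5 at the 39.3rd to Hoxb2 at the 6.98th. Along the Hoxa cluster the levels were higher at Hoxa7 and Hoxa9 than at Hoxa2 and Hoxa3, with Hoxa6 below Hoxa5, and Hoxa11 and Hoxa13 have no row. Along the Hoxb cluster the level was highest at Hoxb4, and Hoxb9 was below the filter with 2 to 13 counts.

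**Figure D1:**
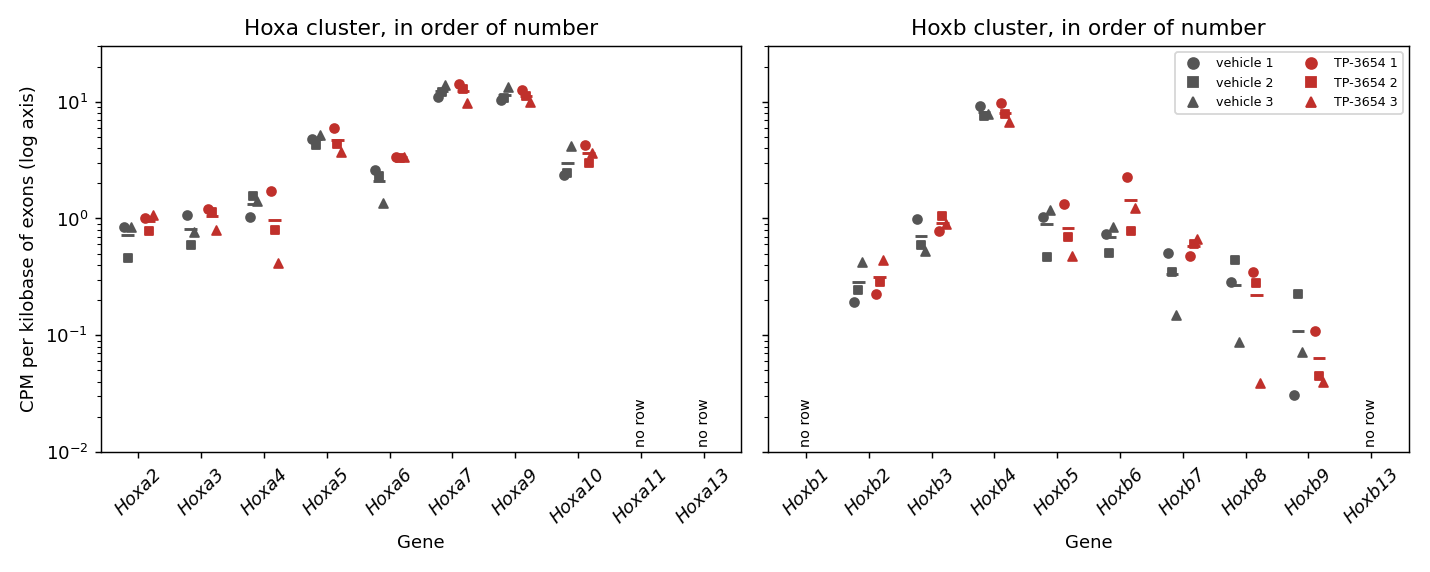
Level in CPM per kilobase of exons (log axis) for genes of the Hoxa cluster (left) and the Hoxb cluster (right), in order of number, with a symbol for each library and a bar at each group's mean. Hoxa7, Hoxa9 and Hoxb4 stand highest, and Hoxb2, at 0.286 in vehicle libraries, is the lowest of the 10 genes described.

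The comparison of TP-3654 with vehicle asks whether inhibiting Pim1 changes gene expression in these stem and progenitor cells. None of the 10 genes passed edgeR's quasi-likelihood test at an adjusted p under 0.05, which 0% of the 13149 tested genes passed, the smallest adjusted p being 0.0701. At an unadjusted p under 0.05, 0 of the 10 were higher and 0 lower, where 10.2% of all tested genes were higher and 6.84% lower. DESeq2 called 0 of the 10 and 4.92% of 13348 genes. In 1 of the 10, Hoxa6, every TP-3654 library exceeded every vehicle library, a pattern shown by 14.3% of tested genes, and in 0 was every one lower (11.6%). The median log2 fold change (TP-3654 over vehicle) of the 10 was 0.07, and of all tested genes 0.01. In the alternative fits the share of genes called was 0% with limma-voom and with other scalings, 0.0316% without the low-count filter, 0.0228% with a replicate block, 0.0525%, 0.135% and 0.232% without TP-3654 replicate 1, 2 and 3, and 0% without any 1 vehicle library. None of the 10 was among them. Higher at an unadjusted p under 0.05 were 8.88%, 7.54% and 7.77% of genes without vehicle replicate 1, 2 and 3, and 9.64%, 9.46% and 7.28% without TP-3654 replicate 1, 2 and 3, with 0 or 1 of the 10 in each. In bulk RNA a change in the share of cells of a type and a change in the RNA per cell cannot be told apart.

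The spread of the 10 genes over the libraries is given as a description. TP-3654 replicate 1 held the highest value of 6 of them (Hoxa3, Hoxa5, Hoxa7, Hoxa10, Hoxb4 and Hoxb5), where it held that of 11.2% of all tested genes. TP-3654 replicate 3 held the lowest value of Hoxa5, Hoxa7, Hoxa9 and Hoxb4 and the highest of Hoxa6 and Hoxb2, 4 and 2 of the 10, where it held 32.3% and 28.9% over all tested genes. The summed level of the 10 genes was 178 CPM in TP-3654 replicate 1 and 134 CPM in TP-3654 replicate 3, so the extremes of all 6 libraries both lay in the treated group.

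**Figure D2:**
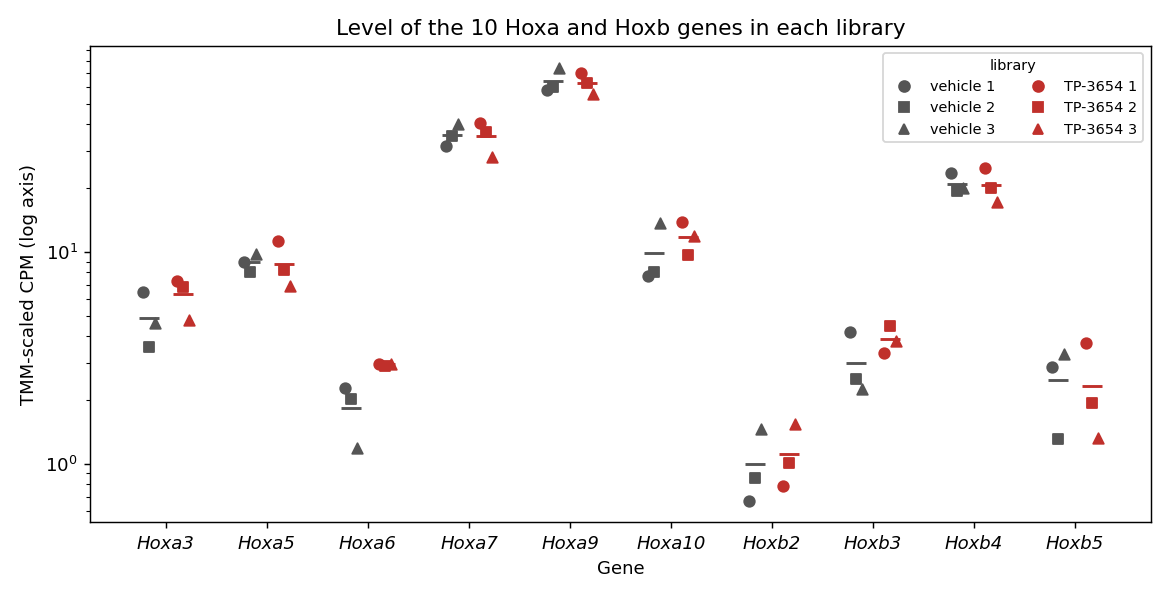
TMM-scaled CPM (log axis) of the 10 genes in each library, vehicle in grey and TP-3654 in red, with a symbol for each replicate and a bar at each group's mean. The groups overlap for each gene except Hoxa6, whose TP-3654 libraries lie at 2.90 to 2.96 and vehicle libraries at 1.19 to 2.29.

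Among the genes of the 5′ end, Hoxa9, a regulator of stem cell renewal and the best known leukaemia gene of the family, had 57.8, 60.1 and 74.1 CPM in vehicle replicates 1 to 3 and 69.7, 62.7 and 55.9 CPM in the TP-3654 replicates. The groups overlapped almost wholly, with the highest library in vehicle and the lowest in TP-3654. The log2 fold change was -0.03 (SE 0.14, edgeR adjusted p = 0.927), with a 95% interval of -0.34 to 0.28, or 0.792- to 1.21-fold. This is the narrowest interval of the 10. Its counts were 1093 to 1619 per library, and the spread between libraries (coefficient of variation 13.8% in vehicle) was above the 2.61% that counting error alone gives.

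Hoxa10, whose product acts beside that of Hoxa9 in early myeloid progenitors, had 7.72, 8.06 and 13.7 CPM in vehicle and 13.8, 9.71 and 11.9 CPM in TP-3654 libraries. Vehicle replicate 3 lay with the treated libraries, and the other 2 vehicle libraries lay below them all. The log2 fold change was 0.26 (SE 0.26, 95% interval -0.32 to 0.85, edgeR adjusted p = 0.601). Leaving out vehicle replicate 3 gave 0.58 with an unadjusted p under 0.05, a level that 7.77% of genes reached in the same direction in that fit. Counts of Hoxa10 per 100 of Hoxa9 were 13.4, 13.4 and 18.5 in vehicle and 19.8, 15.5 and 21.3 in TP-3654 libraries.

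Hoxa7 and Hoxa6 are neighbours of the middle of the cluster. Hoxa7, which is also raised in leukaemias with MLL fusions, had 31.6, 35.1 and 40.2 CPM in vehicle and 40.7, 36.8 and 28.1 CPM in TP-3654 libraries. The groups covered one another, and the log2 fold change was -0.02 (SE 0.17, 95% interval -0.39 to 0.36, edgeR adjusted p = 0.966).

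Hoxa6, the gene shown above with its upstream sequence, had 2.29, 2.03 and 1.19 CPM in vehicle and 2.96, 2.90 and 2.96 CPM in TP-3654 libraries. The counts behind these were 58, 45 and 26 against 64, 75 and 58. All treated libraries were higher, yet the log2 fold change of 0.68 (SE 0.33, 95% interval -0.07 to 1.43) did not pass (unadjusted p = 0.0712, edgeR adjusted p = 0.328). The treated libraries differed by a coefficient of variation of 1.17%, where counting error alone gives 12.3%, so their closeness is below what this depth can resolve. The log2 fold change was 0.45 without vehicle replicate 3, the lowest library. It reached an unadjusted p under 0.05 in limma-voom on all libraries, where 9.99% of genes did so in the same direction, and in edgeR without vehicle replicate 1, where 8.88% did. Counts of Hoxa6 per 100 of Hoxa9 were 3.95, 3.37 and 1.61 in vehicle and 4.25, 4.63 and 5.31 in TP-3654 libraries, without overlap. This ratio holds the same Hoxa6 counts and was chosen after its values were seen, so it is a description and not a second result.

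Hoxa5, which encodes a regulator of progenitor fate, had 8.95, 8.06 and 9.81 CPM in vehicle and 11.2, 8.21 and 6.90 CPM in TP-3654 libraries. Vehicle lay inside the range of the treated libraries, and the log2 fold change was -0.03 (SE 0.23, 95% interval -0.54 to 0.49, edgeR adjusted p = 0.960). Hoxb5, used elsewhere as a marker of long-term stem cells in mouse marrow, had 2.88, 1.31 and 3.30 CPM in vehicle and 3.70, 1.94 and 1.33 CPM in TP-3654 libraries. It varied most of the 10, with a coefficient of variation of 42.1% in vehicle and 53.1% in TP-3654 libraries (13.1% and 13.9% from counting error). Its log2 fold change was -0.10 (SE 0.47, edgeR adjusted p = 0.924), and the 95% interval of -1.16 to 0.96 leaves a change of 2-fold in the lower direction within reach.

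Hoxb4, whose forced expression expands blood stem cells, had 23.6, 19.5 and 20.1 CPM in vehicle and 24.8, 20.01 and 17.1 CPM in TP-3654 libraries. The treated libraries enclosed the vehicle ones, and the log2 fold change was -0.03 (SE 0.17, 95% interval -0.42 to 0.37, edgeR adjusted p = 0.950). Hoxa7, Hoxa9 and Hoxb4, the most abundant genes, thus had estimates within 0.03 of 0 on the log2 scale.

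Of the genes of the 3′ end, Hoxa3 had 6.46, 3.56 and 4.63 CPM in vehicle and 7.31, 6.85 and 4.75 CPM in TP-3654 libraries. Its log2 fold change was 0.37 (SE 0.29, 95% interval -0.29 to 1.03, edgeR adjusted p = 0.519). Hoxb3, its paralogue, had 4.18, 2.52 and 2.25 CPM in vehicle and 3.33, 4.49 and 3.78 CPM in TP-3654 libraries. The pair had the same estimate, 0.37 for Hoxb3 (SE 0.32, 95% interval -0.35 to 1.09, edgeR adjusted p = 0.549). In each, 1 vehicle library, replicate 1, lay among the treated ones.

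Hoxb2 was near the lower end of what the filter kept, with 17, 19 and 32 counts in vehicle and 17, 26 and 30 in TP-3654 libraries (0.670, 0.856 and 1.47 against 0.787, 1.01 and 1.53 CPM). Both groups ran over the same range. Its log2 fold change was 0.15 (SE 0.45, edgeR adjusted p = 0.880), with a 95% interval of -0.85 to 1.15. The coefficient of variation was 41.8% in vehicle and 34.6% in TP-3654 libraries, where counting error alone gives 21.0% and 20.3%.

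The intervals of 5 of the 10 (Hoxa5, Hoxa7, Hoxa9, Hoxa10 and Hoxb4) lay within -1 to 1 on the log2 scale, as did those of 73.3% of all tested genes. For these a 2-fold change in either direction is outside the interval. For Hoxa3, Hoxa6, Hoxb2, Hoxb3 and Hoxb5 it is not.

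**Figure D3:**
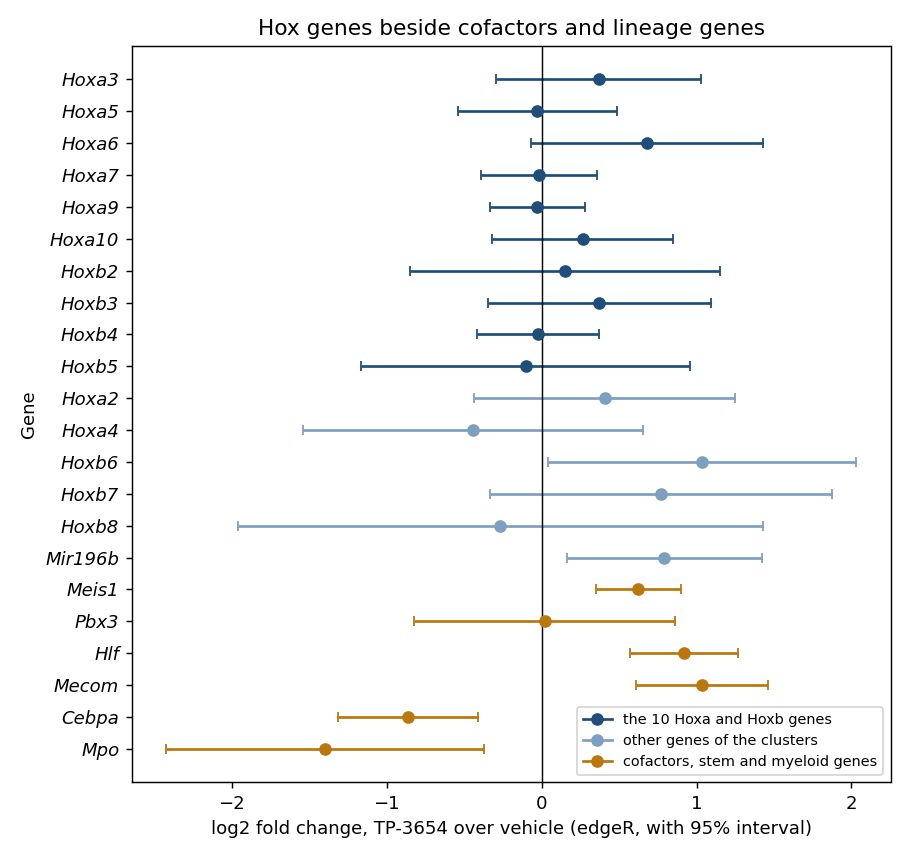
Log2 fold change of TP-3654 over vehicle from edgeR with its 95% interval (bars) for the 10 Hoxa and Hoxb genes, other genes of the clusters, and cofactor, stem and myeloid genes. The intervals of all 10 cross 0, while that of Meis1 runs from 0.35 to 0.90.

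The other Hox genes of the clusters were thinly expressed, as were the lowest of the 10. Per kilobase in vehicle libraries Hoxa4 stood at 1.33, above Hoxb5 (0.895), and Hoxb8 at 0.272, just below Hoxb2 (0.286). Of 29 other Hox genes of the 4 clusters, 14 had a row and 6 were tested, with a median log2 fold change of 0.48 (0.01 over all tested genes). None passed the adjusted threshold in edgeR or DESeq2, where DESeq2 called 4.92% of all genes. At an unadjusted edgeR p under 0.05, 1 was higher and 0 lower, against 10.2% and 6.84% of all tested genes. The higher one was Hoxb6, with 1.46, 0.991 and 1.65 CPM in vehicle and 4.49, 1.55 and 2.40 CPM in TP-3654 libraries (log2 fold change 1.04, SE 0.44, edgeR adjusted p = 0.278). TP-3654 replicate 1 alone stood far above the rest, and the groups overlapped. Hoxa2 (0.41), Hoxb7 (0.77), Hoxc6 (0.55), Hoxa4 (-0.44) and Hoxb8 (-0.27) had adjusted p-values of 0.435 to 0.873. All Hoxc and Hoxd rows together held 31 to 137 counts per library.

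Of 15 noncoding RNA genes in the clusters 8 had a row and 6 were tested, with 0 called by edgeR or DESeq2 (0% and 4.92% of all genes). At an unadjusted edgeR p under 0.05, 1 was higher and 0 lower, against 10.2% and 6.84% of all tested genes. The row with the smallest p was Mir196b, a microRNA gene between Hoxa9 and Hoxa10. It had 4.06, 2.52 and 4.12 CPM in vehicle and 6.71, 5.11 and 6.75 CPM in TP-3654 libraries. All treated libraries were higher, and the log2 fold change was 0.79 (SE 0.28, unadjusted p = 0.0192, edgeR adjusted p = 0.215). Counts of Mir196b per 100 of Hoxa9 were 7.02, 4.19 and 5.56 in vehicle and 9.62, 8.15 and 12.1 in TP-3654 libraries.

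The row does not measure the mature microRNA, which has no poly(A) tail and is too short for these libraries. Its 85 bases lie within exons of Hoxa9 transcripts on the same strand in GENCODE M21, and its counts come from poly(A)-selected RNA that covers the locus. The mature product of the 5′ arm, at positions 52230129 to 52230150 of chromosome 6 in RefSeq GRCm38.p6, is shown with its seed (bases 2 to 8) in capitals. It is known to target Hox mRNAs, and the seed is that of miR-196a-5p. The latter is encoded in the Hoxb cluster by Mir196a-1, which had no row, and also by Mir196a-2 on chromosome 15.
miR-196b-5p: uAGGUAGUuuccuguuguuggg
miR-196a-5p: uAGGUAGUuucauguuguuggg

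Genes beside the clusters showed no call. Of 15 tested flanking genes, 0 passed in edgeR or DESeq2 and 0 had an unadjusted p under 0.05 in edgeR, and their median log2 fold change was -0.01. Over all genes DESeq2 called 4.92%, and 10.2% were higher and 6.84% lower at that unadjusted p. Skap2, next to the Hoxa cluster, had 0.20 (SE 0.12, edgeR adjusted p = 0.394), and Skap1, next to the Hoxb cluster, had 1.06 (SE 0.55, adjusted p = 0.351) at a mean of only 0.526 CPM in vehicle.

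Meis1, which encodes the partner of HOXA9 on DNA, had 118, 110 and 143 CPM in vehicle and 187, 188 and 198 CPM in TP-3654 libraries. All treated libraries were higher, with a log2 fold change of 0.63 (SE 0.12, 95% interval 0.35 to 0.90). It missed the threshold in edgeR (adjusted p = 0.0792) and passed in DESeq2 (adjusted p = 0.00258). Counts of Meis1 per 100 of Hoxa9 were 204, 183 and 193 in vehicle and 268, 299 and 354 in TP-3654 libraries. The ratio was 1.58-fold higher in the treated group by the mean of logs, a description with no test, since Meis1 was set against Hoxa9 with both sets of values known.

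Meis1 is also on the lists of HOXA9 targets and of stem cell markers given below. Of the 8 tested TALE genes it was the only one at an unadjusted p under 0.05 in edgeR, where 10.2% of all tested genes were higher and 6.84% lower. Pbx3, of the PBX family, had a log2 fold change of 0.02 (SE 0.37).

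Among 26 genes of MLL, menin and DOT1L complexes, which maintain Hox transcription, 0 were called by edgeR and 1 by DESeq2, and at an unadjusted edgeR p under 0.05 there were 3 higher and 0 lower. Over all genes the shares were 4.92% called by DESeq2, 10.2% higher and 6.84% lower, so these counts are near the background. The list's median log2 fold change was 0.07. The DESeq2 call was Mllt6 (log2 fold change 0.61, SE 0.11, edgeR adjusted p = 0.0792), and the other 2 were Aff4 (0.46) and Aff3 (0.40), of the elongation factor family. Kmt2a, which encodes MLL itself, had 134, 138 and 101 CPM in vehicle and 139, 142 and 223 CPM in TP-3654 libraries. Those groups barely separated, and the estimate was 0.43 (SE 0.21, edgeR adjusted p = 0.329).

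Of 33 Polycomb genes, which keep Hox clusters silent, 0 were called by edgeR and 1 by DESeq2, and at an unadjusted edgeR p under 0.05 there were 3 higher and 0 lower, with a median of 0.14. Against 4.92%, 10.2% and 6.84% of all genes these counts too are no more than the background. The DESeq2 call was Cbx7 (0.67, SE 0.15, edgeR adjusted p = 0.0936). The methyltransferase gene Ezh2 had a log2 fold change of -0.04 (SE 0.10) and the stem cell regulator Bmi1 0.31 (SE 0.16, edgeR adjusted p = 0.351). Of 8 tested genes of retinoic acid signalling and H3K27 demethylation, 0 were called by edgeR and 2 by DESeq2, and at an unadjusted edgeR p under 0.05 there were 2 higher and 1 lower, with a median of 0.31. The shares over all genes were 4.92%, 10.2% and 6.84%. The higher ones included Kdm6b, which encodes an H3K27 demethylase (0.57, SE 0.13, edgeR adjusted p = 0.0974), and the lower one was Rarg (-0.37, SE 0.16). The caudal genes Cdx1, Cdx2 and Cdx4 had no row. Of 9 genes of CTCF and cohesin, which bound the clusters' domains, 0 were called by either tool and 0 were at an unadjusted edgeR p under 0.05, with a median of 0.06.

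Of 16 tested genes reported as targets of HOXA9 and MEIS1, 0 were called by edgeR, while DESeq2 had 4 higher and 1 lower. At an unadjusted edgeR p under 0.05 there were 5 higher and 1 lower, with a median of 0.23. Over all genes DESeq2 called 4.92%, and 10.2% were higher and 6.84% lower. The members had opposite signs: the receptor gene Flt3 had 0.78 (SE 0.20, edgeR adjusted p = 0.130), the transcription factor gene Erg 0.50 (SE 0.13, adjusted p = 0.117) and Trib2, a pseudokinase gene, -1.31 (SE 0.37, adjusted p = 0.159). Pim1, the drug's named target, is on this list and had 392, 288 and 380 CPM in vehicle and 323, 544 and 420 CPM in TP-3654 libraries. These overlapped, and since an inhibitor acts on the protein the RNA level does not check the treatment. The log2 fold change of Jak2 was -0.09 (SE 0.11).

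**Figure D4:**
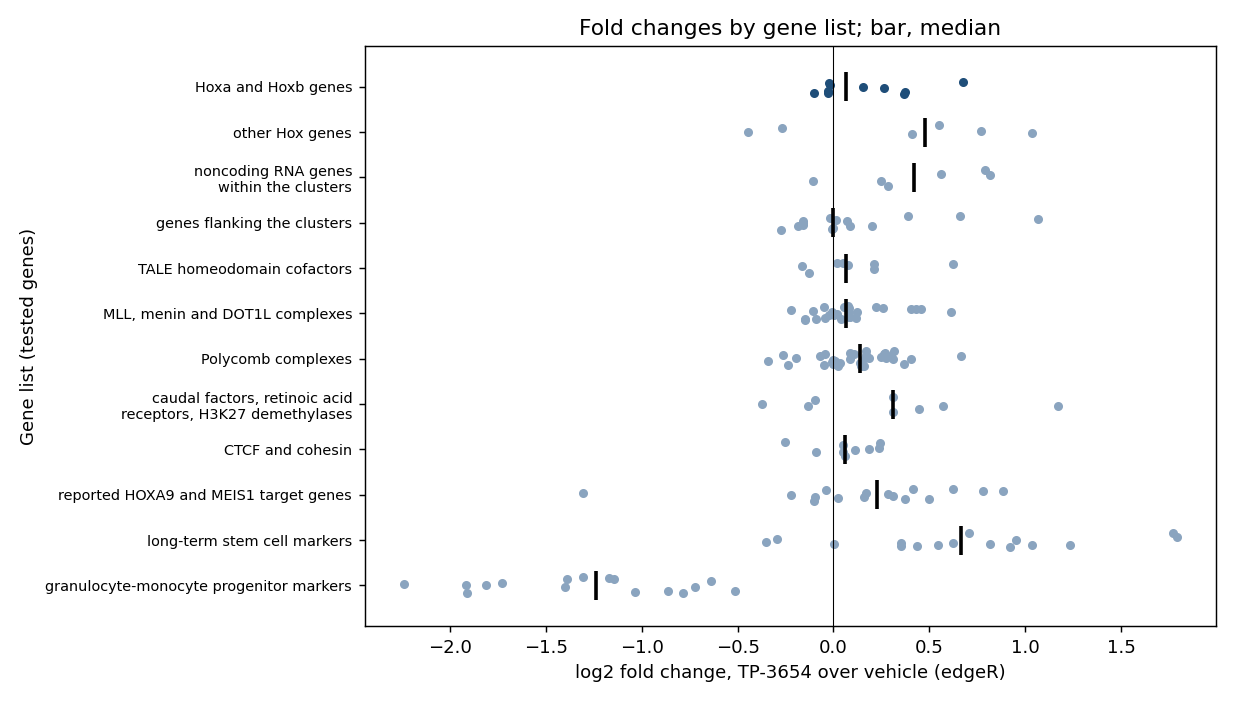
Log2 fold change of TP-3654 over vehicle from edgeR for each tested gene of each list (points), with the list's median (bar). The 10 Hoxa and Hoxb genes lie around a median of 0.07, the long-term stem cell markers around 0.67 and the granulocyte-monocyte progenitor markers around -1.24.

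Markers of cell state differed between the groups in the same libraries. The summed level of 16 long-term stem cell markers was 623 to 751 CPM in vehicle and 849 to 983 CPM in TP-3654 libraries. That of 16 granulocyte-monocyte progenitor markers was 12378 to 15876 CPM in vehicle and 3449 to 9111 CPM in TP-3654 libraries, and neither pair of ranges overlapped. Among the stem cell markers 9 were higher at an unadjusted p under 0.05 and 0 lower, with 0 called by edgeR and 9 by DESeq2, and among the progenitor markers 13 were lower and 0 higher, with 0 called by edgeR and 8 by DESeq2. Over all genes 10.2% were higher, 6.84% lower and 4.92% called by DESeq2. Hlf, a stem cell transcription factor gene, had 71.9, 50.9 and 76.9 CPM in vehicle and 132, 119 and 127 CPM in TP-3654 libraries, and Cebpa, which drives myeloid commitment, had 155, 157 and 171 CPM against 78.0, 120 and 67.7 CPM. Gata2, the most abundant stem cell marker, went the other way, with means of 274 and 224 CPM and overlapping groups. Its log2 fold change was -0.29 (SE 0.17, edgeR adjusted p = 0.386). Every TP-3654 library was higher in 12 of the 16 stem cell markers and lower in 1, against 14.3% and 11.6% of all tested genes. The summed mature neutrophil and monocyte markers ran from 112 to 370 CPM in vehicle and from 89.5 to 160 CPM in TP-3654 libraries. Whether these shifts have a part in the levels of the Hox genes was not tested.

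By likeness of the profile over the 6 libraries, the genes nearest to the mean of the 6 Hoxa genes were Cbx6, Dok2 and Zfp395, at root mean square distances of 0.0417, 0.0579 and 0.0634 log2 units, where the median of 9641 genes was 0.243. Those nearest to the mean of the 4 Hoxb genes were Zfp408, Dusp6 and Dtx3, at 0.0372, 0.0483 and 0.0557, where the median was 0.253. Both mean profiles are shallow, with a root mean square of 0.167 and 0.173 log2 units, so a likeness over 6 libraries is a description only.

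The deposit holds a second source for these genes, the authors' deposited table of their own comparison, whose mean level departed most from that of the count table for Hoxb2, Hoxb3 and Hoxa7. In the authors' deposited table Hoxb2 has a mean normalized count of 178, where the count table gives 23.7, a 7.49-fold difference. Hoxb3 has 430 in the authors' deposited table and 77.0 from the count table, 5.59-fold. Hoxa7 goes the other way, with 410 in the authors' deposited table and 797 from the count table, a ratio of 0.514. Hoxb5 had a ratio of 1.25 and the other 6 genes had ratios of 0.816 to 0.975.

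Over 11348 genes with a mean of at least 50 the median ratio was 0.878, and 329 genes (2.90%) lay more than 2-fold from it. Of the 10 genes Hoxb2 and Hoxb3 were past that limit and Hoxa7 was within it. The authors' comparison was not made from the deposited counts as they stand. A total of 2850 gene rows are in the count table only, among them Hoxb3os and Mir196b, and 159 are in the comparison only. Beside the ratios, the share of exon bases opposite another gene was 52.9% for Hoxb3, 27.3% for Hoxb2, 25.4% for Hoxa3, whose ratio to the authors' deposited table was 0.842, and 20.4% for Hoxa7. The part of antisense overlap in the difference was not tested.

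**Figure D5:**
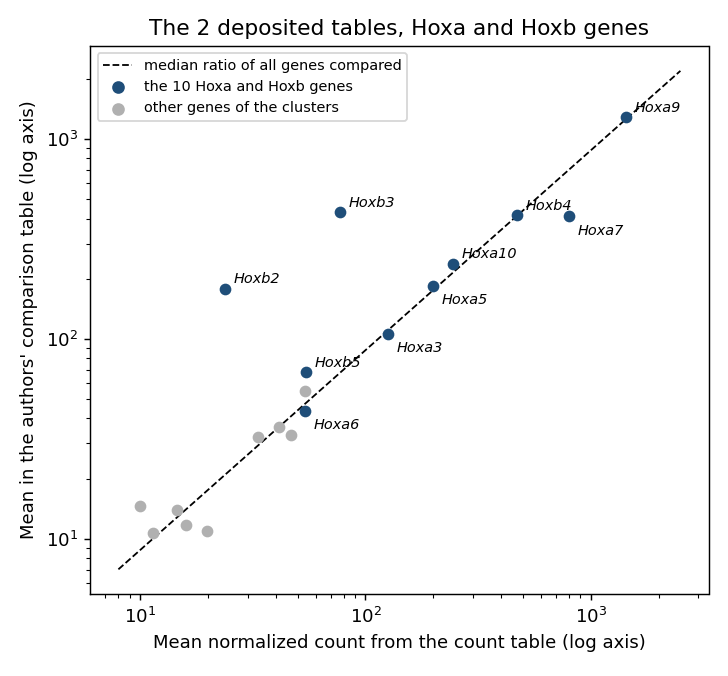
Mean normalized count of each gene over all 6 libraries in the authors' comparison table (y axis) against that computed from the count table (x axis), both on log axes, with the line of the median ratio of all genes compared (0.878). Hoxb2 and Hoxb3 lie 7.49 and 5.59 times above equality, and Hoxa7 lies at 0.514.

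The order of levels changed with the source, and none of the 10 was called from either. Per kilobase, Hoxb3 ranked 4th among the 10 in the authors' deposited table and 9th in the count table over the 6 libraries, Hoxb2 ranked 7th and 10th, and Hoxa7 3rd and 1st. In mean normalized count the authors' deposited table has Hoxb3 at 430, above Hoxb4 (415) and Hoxa7 (410), with Hoxa9 highest at 1284. The shares of counts given above were taken from the count table only. In the authors' deposited table, 699 of 13130 genes (5.32%) have an adjusted p under 0.05 and 0 of the 10 do. Its log2 fold changes are 0.66 for Hoxa6 (deposited adjusted p = 0.307), 0.47 for Hoxa3, 0.34 for Hoxa10 and 0.06 for Hoxb3, which have the sign found from the counts. For the other 6 the authors' deposited table has the opposite sign: -0.09 for Hoxb2, 0.16 for Hoxb5, 0.07 for Hoxa5, 0.07 for Hoxb4, 0.06 for Hoxa7 and 0.01 for Hoxa9. Each of those 6 estimates is smaller in size than its deposited SE (0.13 for Hoxa9 to 0.41 for Hoxb5), so their signs are not settled. Hoxa3 and Hoxb3, alike at 0.37 from the counts, stand at 0.47 (SE 0.33) and 0.06 (SE 0.21) in the authors' deposited table. The difference between Hoxa3 and Hoxb3 was not tested.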

How the data were processed

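RNA-seq libraries of LSK cells from 3 vehicle and 3 TP-3654 mice were compared. The authors deposited whole-number counts per Entrez gene without normalization. Their deposited comparison table holds, per the file headers, a mean signal (normalized count over all libraries), log2 fold changes and their standard errors, a Wald statistic as a score, and p-values before and after adjustment. Per the submitters' processing notes, the tools were HISAT2 2.1.0, SAMtools 1.9.0 and DESeq2, with GRCm38 (mm10) as the build. For the read counter, the annotation and whether strand was used, the answer is not given in the sources used here.

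Symbols came from the deposited table (12995 rows) and from RefSeq (2844), giving 15839 of 15845. Tests used edgeR 4.0.16 in R 4.3.3 (TMM, filterByExpr, robust quasi-likelihood F test, Benjamini-Hochberg over 13149 genes). The filter removed 2696 genes with 0.0674% of the counts. Each SE was derived from F, as |log2 fold change| divided by its square root. DESeq2 1.42.0, limma-voom (limma 3.58.1), other scalings, no filter, a replicate block and fits without each library were alternatives. The edgeR fit was tested on simulated counts with known changes. Exon lengths, homeoboxes and shared 31-base words came from GENCODE M21. A locus is named with at least 20 shared words, a word counting once for each transcript of the locus that holds it.

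The genes and lists were chosen with earlier results of these data known. Named are all 10 genes, other cluster genes with a row, up to 4 genes of each list by smallest p, fixed regulators and markers, and the 3 nearest profiles per cluster (mean log2 CPM of at least 3, outside the Hox family). Markers follow the same kind of rule. Pbx3, the Hox and marker sums, the ratios to Hoxa9 and the comparison of the deposited tables were chosen after their values were seen. Some genes and sequences under this rule are not reported here.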

Additional observations from a re-analysis of the deposited data

How the results depend on the processing

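None of the 10 genes was called in any of the 13 alternatives, where their smallest adjusted p was 0.285. The count of called genes, 0 in edgeR, was 657 in DESeq2, 5 without the low-count filter, 3 with the replicate block, and 0 to 31 over the fits without 1 library each (0 without any vehicle library, 7, 18 and 31 without TP-3654 replicate 1, 2 and 3). The labels do not say what the replicate numbers mark. No sign of pairing by number was seen: same-numbered libraries had correlations of -0.012, -0.015 and 0.031 in their deviations from the group means over 13149 genes. With 3 libraries per group this cannot exclude a pairing. Under the replicate block 0 of the 10 were called. Higher at an unadjusted p under 0.05 was 1 of the 10 in limma-voom (Hoxa6) and 0 to 1 without 1 library (Hoxa6 without vehicle replicate 1, Hoxa10 without vehicle replicate 3). Estimates changed sign in 15 of 130 fits, all without 1 library and the reversed values all within 0.158 of 0. Without 1 library the log2 fold change ran from -0.24 to 0.11 for Hoxa5, -0.13 to 0.11 for Hoxa7, -0.11 to 0.0897 for Hoxa9, -0.16 to 0.53 for Hoxb2, -0.18 to 0.0814 for Hoxb4 and -0.61 to 0.16 for Hoxb5, and kept its sign for Hoxa3, Hoxa6, Hoxa10 and Hoxb3. Hoxb2, Hoxb5 and Hoxa6 rest on 17 to 80 counts per library, where counting error alone gives a coefficient of variation of 12.3% to 21.0%, and a smaller spread is not detectable at this depth.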
